A study of Mus musculus with 12 samples.

Results

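The suppressor of cytokine signalling (SOCS) family holds 8 genes in the mouse, Cish and Socs1 to Socs7. They were taken by symbol from a table of read counts for 24062 genes. All 8 were found, and all 8 passed the filter on low counts that left 13509 genes for testing. The libraries hold messenger RNA of CD4+ T cells from C57BL/6 mice, sorted by green fluorescent protein (GFP) into regulatory T cells (Treg, CD4+GFP+) and conventional T cells (Tconv, CD4+GFP-). Each cell type was taken at 3 places, tumour and spleen in tumour-bearing (TB) mice and spleen alone in normal mice, which gives 6 groups of 2 libraries. TB mice had received 500000 TC-1 cells, tumour cells derived from mouse lung epithelium, into the tail vein 3 weeks before harvest, and CD4+ T cells were enriched by negative selection before the sort. The groups are called tumour Treg, TB spleen Treg, normal spleen Treg, tumour Tconv, TB spleen Tconv and normal spleen Tconv. The allele or promoter that drives GFP, the age of the mice and any pooling of mice are not given in the labels. The study concerns the build-up of Treg in the tumour and IL33/ST2 signalling.

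SOCS proteins are negative feedback inhibitors of cytokine receptors that signal through Janus kinases (JAK) and STAT transcription factors. Each binds phosphorylated receptor or JAK tyrosines with an SH2 domain and recruits elongins B and C and cullin 5 through its SOCS box, which marks bound proteins for degradation. SOCS1 and SOCS3 also block the JAK catalytic site directly. In T cells, interleukin 2 (IL-2) and related cytokines induce Cish and Socs2 through STAT5, interferon gamma induces Socs1, and cytokines of the IL-6 family induce Socs3 through STAT3. SOCS4 to SOCS7 have longer N-terminal regions, and SOCS4, SOCS5 and SOCS6 are best known for acting on receptor tyrosine kinases.

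STAT dimers bind the palindrome TTCNNNGAA, so the promoters of the cytokine-induced members were searched for it and for the wider TTCNNNNGAA. RefSeq windows of 300 bases on GRCm38.p6, from 250 bases before to 50 after the annotated start, were searched for 4 of the 8 members. They lie at chr9:107296409-107296708 on the plus strand for Cish, chr11:117969317-117969616 on the minus strand for Socs3, chr16:10785487-10785786 on the minus strand for Socs1 and chr14:47276670-47276969 on the plus strand for Socs4. Cish and Socs3 are shown because they hold the palindrome, Socs1 because it is a cytokine-induced member without it, and Socs4 as the member that varied least between groups. Capitals mark each match to TTCNNNGAA, which reads alike on both strands, and all sequences run 5′ to 3′ on the strand of the gene.
Cish: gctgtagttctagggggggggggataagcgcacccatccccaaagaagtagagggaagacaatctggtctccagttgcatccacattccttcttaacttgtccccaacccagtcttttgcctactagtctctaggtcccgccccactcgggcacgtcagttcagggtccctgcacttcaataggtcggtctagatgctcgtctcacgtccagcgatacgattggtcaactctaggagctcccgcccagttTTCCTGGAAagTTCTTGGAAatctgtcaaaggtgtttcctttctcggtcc
Socs3: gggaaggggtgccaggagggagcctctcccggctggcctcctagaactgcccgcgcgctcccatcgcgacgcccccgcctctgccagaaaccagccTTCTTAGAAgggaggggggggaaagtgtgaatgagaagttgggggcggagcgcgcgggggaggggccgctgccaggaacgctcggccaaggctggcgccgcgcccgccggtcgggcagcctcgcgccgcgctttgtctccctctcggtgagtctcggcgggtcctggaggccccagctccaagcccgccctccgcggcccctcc
Socs1: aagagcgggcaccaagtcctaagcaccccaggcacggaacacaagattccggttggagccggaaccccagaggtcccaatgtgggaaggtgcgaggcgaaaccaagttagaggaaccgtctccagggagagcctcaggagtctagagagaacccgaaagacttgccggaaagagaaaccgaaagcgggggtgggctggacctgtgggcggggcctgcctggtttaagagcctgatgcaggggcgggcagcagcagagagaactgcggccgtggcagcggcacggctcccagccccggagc
Socs4: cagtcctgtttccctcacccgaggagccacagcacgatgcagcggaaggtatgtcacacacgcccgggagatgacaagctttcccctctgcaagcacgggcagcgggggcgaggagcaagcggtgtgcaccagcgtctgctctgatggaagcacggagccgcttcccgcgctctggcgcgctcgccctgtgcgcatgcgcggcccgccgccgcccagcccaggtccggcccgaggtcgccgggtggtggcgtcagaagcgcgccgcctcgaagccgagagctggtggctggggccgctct
Cish held 2 matches, TTCCTGGAA at bases 1 to 9 and TTCTTGGAA at bases 12 to 20 counted from the RefSeq start. Socs3 held 1 match, TTCTTAGAA at bases -154 to -146. No match to TTCNNNGAA lay in the Socs1 and Socs4 windows, and none to TTCNNNNGAA in any of the 4. Of 32851 promoter windows of this length, 8.3% held at least 1 TTCNNNGAA, 0.457% held 2 or more, and 6.95% held at least 1 TTCNNNNGAA. A match describes the letters of the window and is not evidence of binding. The members not matched were Socs2, Socs5, Socs6 and Socs7.

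Library totals ran from 18624132 to 24111546 counts. The lowest count of any member in any library was 50, for Socs2 in normal spleen Tconv. Levels are given in CPM, read counts scaled to the TMM-adjusted library total, and every group mean is over n = 2 libraries, with ± its SD. After a log2 difference, ± gives the SE. Tests are edgeR quasi-likelihood tests, Benjamini-Hochberg adjusted over the 13509 tested genes, with a call at an adjusted p under 0.05. The labels do not say that the 2 libraries of a group came from different mice, so p-values measure the spread between these libraries, which may be technical. Foxp3, the lineage factor of Treg, had 1155 and 1247 CPM in tumour Treg, 1028 and 1004 in TB spleen Treg, and 989 and 1042 in normal spleen Treg, against 11.5 to 19.6 CPM in the 6 Tconv libraries, so the Treg and Tconv labels matched the marker. Because none of the libraries came from the tumour-bearing organ of normal mice, differences of tumour from spleen cannot be told apart from differences between organs. In bulk libraries, fewer cells expressing a gene and less RNA per cell cannot be told apart either.

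The family held 5 members with a wide range over the 6 groups and 3 with a narrow one. The span of a gene, its highest minus its lowest group mean of log2 CPM, was 4.89 for Socs2, 4.12 for Cish, 2.49 for Socs3, 1.65 for Socs1 and 1.56 for Socs5. It was 0.60 for Socs6, 0.29 for Socs7 and 0.18 for Socs4. The median span of all tested genes was 1.02, and 51.0% of them spanned at least 1, as did 5 of the 8 members. Only 0.866% of tested genes had a smaller span than Socs4. The wide members did not share 1 pattern: Cish and Socs2 were highest in tumour Treg, Socs3 in tumour Tconv, and Socs5 in TB spleen Treg. The highest Socs1 means, 94.2 CPM in TB spleen Treg and 93.5 in tumour Tconv, did not differ by the edgeR test (adjusted p = 0.934).

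**Figure D1:**
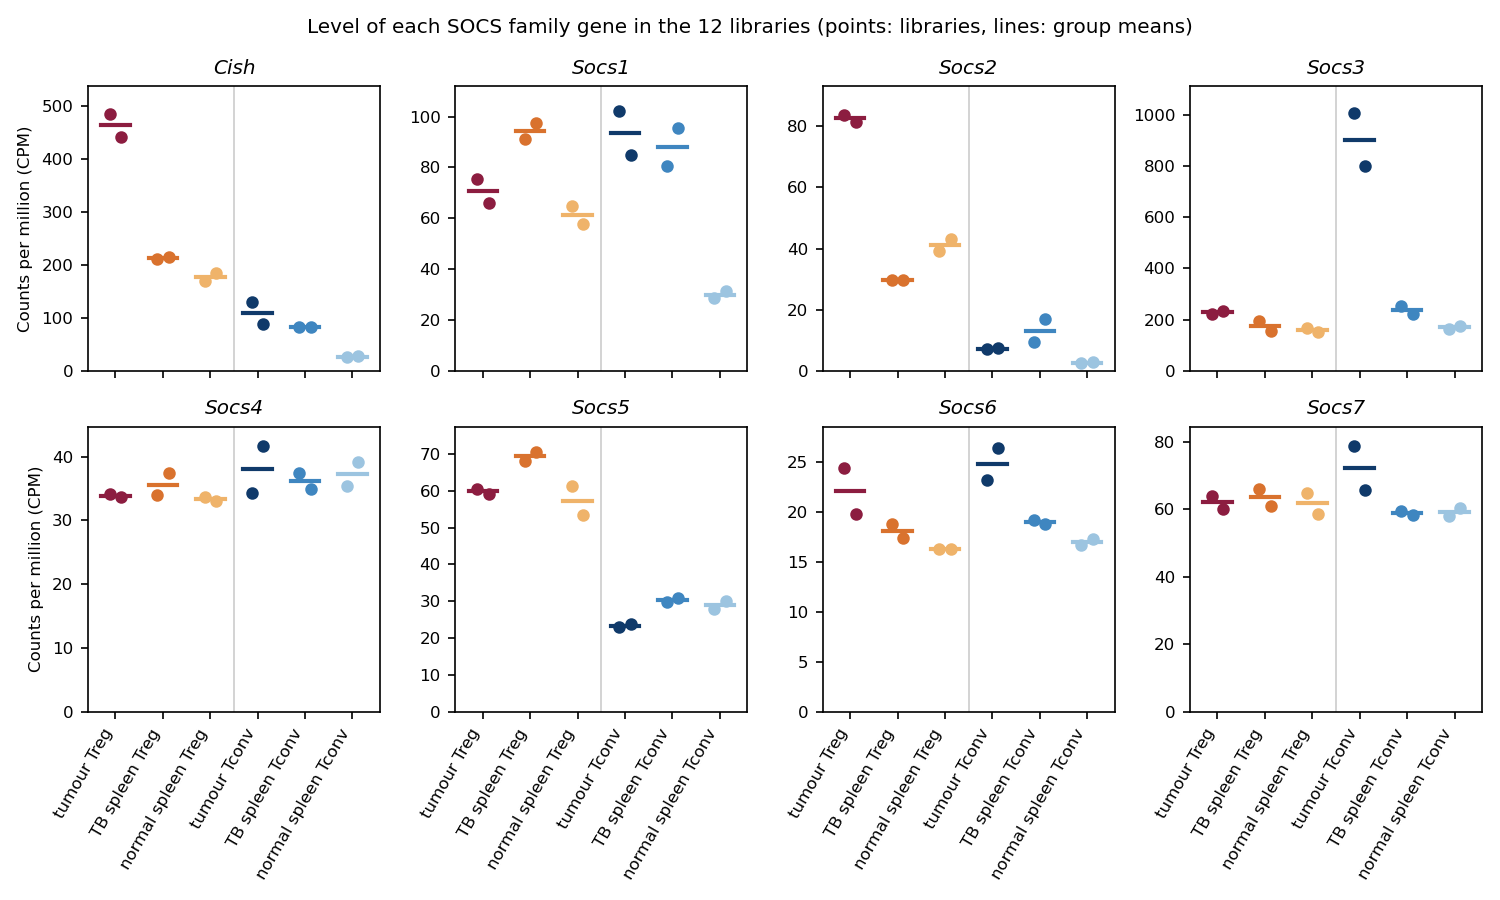
Levels in CPM of the 8 SOCS family genes (vertical axes, each from 0) in the 6 groups, with 1 point per library and a line at each group mean. Cish and Socs2 peak in tumour Treg, Socs3 peaks in tumour Tconv at 1007 and 800 CPM, and Socs4 stays between 33.1 and 41.7 CPM in all 12 libraries.

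Cish encodes CIS, the STAT5-induced inhibitor that acts at IL-2 family receptors and the T cell receptor. It had 485 and 442 CPM in tumour Treg, 212 and 215 in TB spleen Treg, and 169 and 185 in normal spleen Treg. In Tconv it had 129.6 and 88.7 CPM in the tumour, 82.3 and 83.8 in TB spleen, and 25.7 and 27.3 in normal spleen. All 6 Treg libraries lay above all 6 Tconv libraries, and the 2 normal spleen Tconv libraries lay lowest by a wide gap. In the order of the 6 group means, each group differed from the next by the test except TB spleen Treg and normal spleen Treg (log2 difference 0.27 ± 0.13 SE, adjusted p = 0.174). Of the exonic bases of Cish (chromosome 9, 107296026 to 107302784, plus strand, GENCODE M21 on mm10 as for all positions below), 740, or 11.5%, overlap genes annotated on the opposite strand. No source used here gives the strand setting of the counting. How many Cish reads fall in that overlap was not tested, so this share of bases does not bound the uncertainty of its level.

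Socs2 (chromosome 10, 95385362 to 95417180, minus strand), another STAT5-induced gene best known for restraining growth hormone signalling, was low in every Tconv library. It had 83.8 and 81.4 CPM in tumour Treg, 29.6 and 29.7 in TB spleen Treg, and 39.2 and 43.1 in normal spleen Treg. Tconv held far less, with 6.99 and 7.44 CPM in the tumour, 9.33 and 16.9 in TB spleen, and 2.55 and 2.86 in normal spleen. Treg and Tconv did not overlap, and tumour Treg stood clear of every other library. The means ran over a 30.5-fold range, the widest ratio in the family. The 2 TB spleen Tconv libraries were uneven, with raw counts of 179 and 376, and the only neighbours in the order that did not differ by the test were normal spleen Treg and TB spleen Treg (0.47 ± 0.17, adjusted p = 0.0764).

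Socs1 (chromosome 16, 10782240 to 10785536, minus strand) encodes a potent JAK inhibitor whose loss is known to destabilise Treg. It had 75.4 and 66.0 CPM in tumour Treg, 91.0 and 97.4 in TB spleen Treg, and 64.8 and 57.9 in normal spleen Treg. In Tconv it had 102 and 84.8 CPM in the tumour, 80.4 and 95.5 in TB spleen, and 28.8 and 31.2 in normal spleen. The 2 normal spleen Tconv libraries lay apart, and the other 10 lay between 57.9 and 102 CPM. Within that range TB spleen Tconv was higher than tumour Treg by the test (0.32 ± 0.11, adjusted p = 0.0211), and their libraries did not overlap. The 3 highest means, of TB spleen Treg, tumour Tconv and TB spleen Tconv, did not differ from one to the next by the test (adjusted p = 0.934 and 0.544), and neither did those of tumour Treg and normal spleen Treg (adjusted p = 0.122).

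Socs3 (chromosome 11, 117966079 to 117970047, minus strand) encodes an inhibitor of gp130, the shared signalling chain of the IL-6 receptor family. It had 221 and 235 CPM in tumour Treg, 194 and 157 in TB spleen Treg, and 167 and 153 in normal spleen Treg. In Tconv it had 1007 and 800 CPM in the tumour, against 253 and 223 in TB spleen and 163 and 176 in normal spleen. Both tumour Tconv libraries lay above all others by more than 3-fold, while the other 10 libraries lay between 153 and 253 CPM. The only called neighbours in the order of means were tumour Tconv over TB spleen Tconv and tumour Treg over TB spleen Treg.

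Socs5 (chromosome 17, 87107679 to 87137839, plus strand), a member linked to IL-4 receptor and epidermal growth factor receptor signalling, split by cell type at every site. It had 60.5 and 59.2 CPM in tumour Treg, 68.0 and 70.6 in TB spleen Treg, and 61.2 and 53.3 in normal spleen Treg. In Tconv it had 23.1 and 23.8 CPM in the tumour, 29.7 and 31.0 in TB spleen, and 27.9 and 30.0 in normal spleen. The cell types did not overlap at any site. Among the rest, Socs4 lay between 33.1 and 41.7 CPM over all 12 libraries, Socs6 between 16.3 and 26.4 CPM and Socs7 between 57.9 and 78.6 CPM. Over the 15 pairs of groups, 15.3% to 73.3% of tested genes were called. For Socs4, Socs6 and Socs7 no pair of neighbouring groups in the order of means differed by the test. Socs4 was called in no pair at all, but Socs6 and Socs7 were called between groups further apart. In tumour Tconv over normal spleen Tconv, Socs6 was at 0.545 ± 0.115 (adjusted p = 0.00137) and Socs7 at 0.286 ± 0.09 (adjusted p = 0.0154). In normal spleen Treg over tumour Tconv, Socs6 was at -0.611 ± 0.114 (adjusted p = 0.000547).

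Levels of different genes were compared per kilobase of transcript, since counts rise with length. Socs3 was the most abundant member in all 3 Tconv groups, whether the length was that of the longest RefSeq-matched transcript or the union of all annotated exons. In tumour Tconv it made up 77.5% of the summed CPM per kb of the family by the transcript length and 81.4% by the exon union, against 50.3% and 56.1% in TB spleen Tconv and 58.7% and 63.1% in normal spleen Tconv. In tumour Treg, Cish led by the transcript length, with 163 ± 10.7 CPM per kb and Socs3 at 89.3 ± 3.97. By the exon union, Socs3 had 78.8 ± 3.5 and Cish 72.2 ± 4.77 CPM per kb in tumour Treg, so which of the pair leads there depends on the length used. In TB spleen Treg, Cish led by the transcript length (74.9 ± 0.619 against 68.8 ± 10.2 for Socs3). By the exon union Socs3 led there (60.8 ± 8.98 against 33.3 ± 0.275 for Cish). In normal spleen Treg, Socs3 led by both lengths, narrowly by the transcript length (62.7 ± 3.99 against 62.1 ± 3.77 for Cish). Socs2 made up 10.7% of the family sum in tumour Treg and 0.711% in tumour Tconv by the transcript length, against 4.15% and 0.197% by the exon union.

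**Figure D2:**
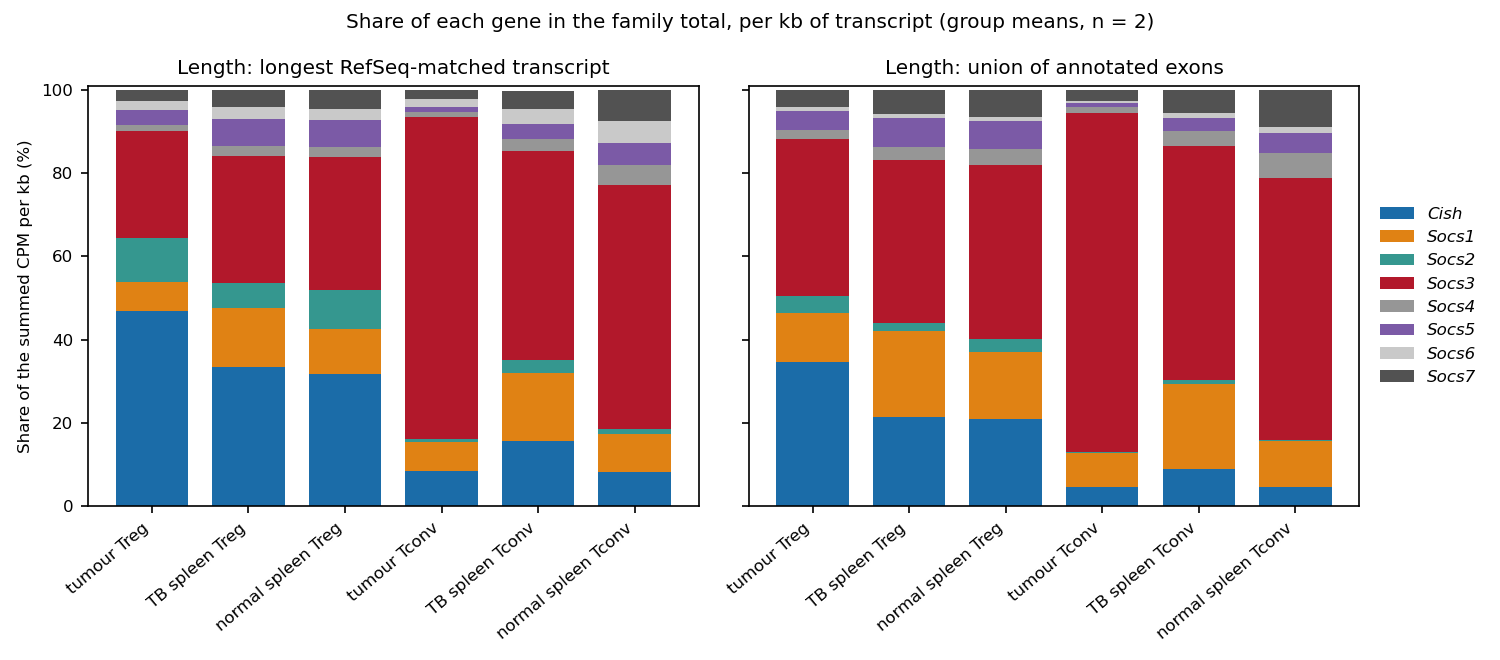
Share of each gene in the summed CPM per kb of the 8 SOCS family genes (vertical axis, percent) in the 6 groups, from group means, with the transcript length used on the left and the exon union on the right. Socs3 takes 77.5% and 81.4% of the sum in tumour Tconv, while Cish takes 46.8% and 34.6% in tumour Treg.

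Within Treg, the tumour differed from the spleen of the same kind of mice in 6 of the 8 members. This comparison called 61.4% of all tested genes, so the count of members is read against a high background. Cish was 2.17-fold higher in tumour Treg than in TB spleen Treg (log2 fold change 1.12 ± 0.13 SE, adjusted p = 1.22e-05) and Socs2 was 2.79-fold higher (1.48 ± 0.17, adjusted p = 1.06e-05). Both held when any 1 library was left out, with Cish between 1.05 and 1.19 and Socs2 between 1.46 and 1.50. Socs1 was 1.33-fold lower (-0.41 ± 0.11, adjusted p = 0.00583). Socs3 and Socs6 were higher (0.38 ± 0.12 and 0.29 ± 0.11) and Socs5 was lower (-0.21 ± 0.08), all with adjusted p between 0.0164 and 0.0405. The median log2 fold change was 0.13 over the members and 0.02 over all tested genes. The 4 smaller differences were sensitive to single libraries. Socs1 had an adjusted p of 0.0539 without tumour Treg library 2. Socs3 was not called without TB spleen Treg library 2 (0.23, adjusted p = 0.171) or tumour Treg library 2 (adjusted p = 0.077). Socs5 was not called without either tumour Treg library or either TB spleen Treg library (adjusted p 0.0582 to 0.14). Socs6 was called only when nothing, or tumour Treg library 2 or either tumour Tconv library, was left out, and was 0.13 without tumour Treg library 1 (adjusted p = 0.361). Further fits ended calls: DESeq2 for Socs5 (adjusted p = 0.141) and Socs6 (adjusted p = 0.0533), its size factors within edgeR for Socs5 (adjusted p = 0.0643), leaving low counts unfiltered for Socs6 (adjusted p = 0.0725), scaling by library size for Socs3 (adjusted p = 0.115) and Socs6 (adjusted p = 0.341), and a fit of only the groups compared for Socs5 (adjusted p = 0.0599) and Socs6 (adjusted p = 0.0768).

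Within Tconv, the tumour was set apart by Socs3. It was 3.8-fold higher in tumour Tconv than in TB spleen Tconv (1.93 ± 0.12, adjusted p = 1.63e-07) and stayed between 1.76 and 2.07 whichever library was left out. In all, 6 of the 8 members were called in this comparison, as were 49.1% of tested genes, with a median log2 fold change of 0.19 over the members and 0.00 over all tested genes. Socs5 was lower (-0.37 ± 0.09, adjusted p = 0.00319) under every library left out. Socs2 was lower (-0.87 ± 0.21, adjusted p = 0.0042), but its value rests on TB spleen Tconv library 2: without it the difference was -0.37 with an adjusted p of 0.0395, and a fit of only the groups compared gave an adjusted p of 0.0637. Cish, Socs6 and Socs7 were higher by 0.39 ± 0.13, 0.39 ± 0.11 and 0.29 ± 0.09, with adjusted p between 0.0137 and 0.0262. Each of these 3 calls was lost when any of 3 libraries was left out and under scaling by library size (adjusted p 0.0594 to 0.0908). Cish was not called without tumour Tconv library 1 (0.11, adjusted p = 0.365) or either TB spleen Tconv library, nor in a fit of only the groups compared (adjusted p = 0.0872), and was 0.63 without tumour Tconv library 2. Socs7 was not called without tumour Tconv library 1 (0.17, adjusted p = 0.155) or either TB spleen Tconv library, and Socs6 without tumour Tconv library 2 (adjusted p = 0.113) or either TB spleen Tconv library.

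**Figure D3:**
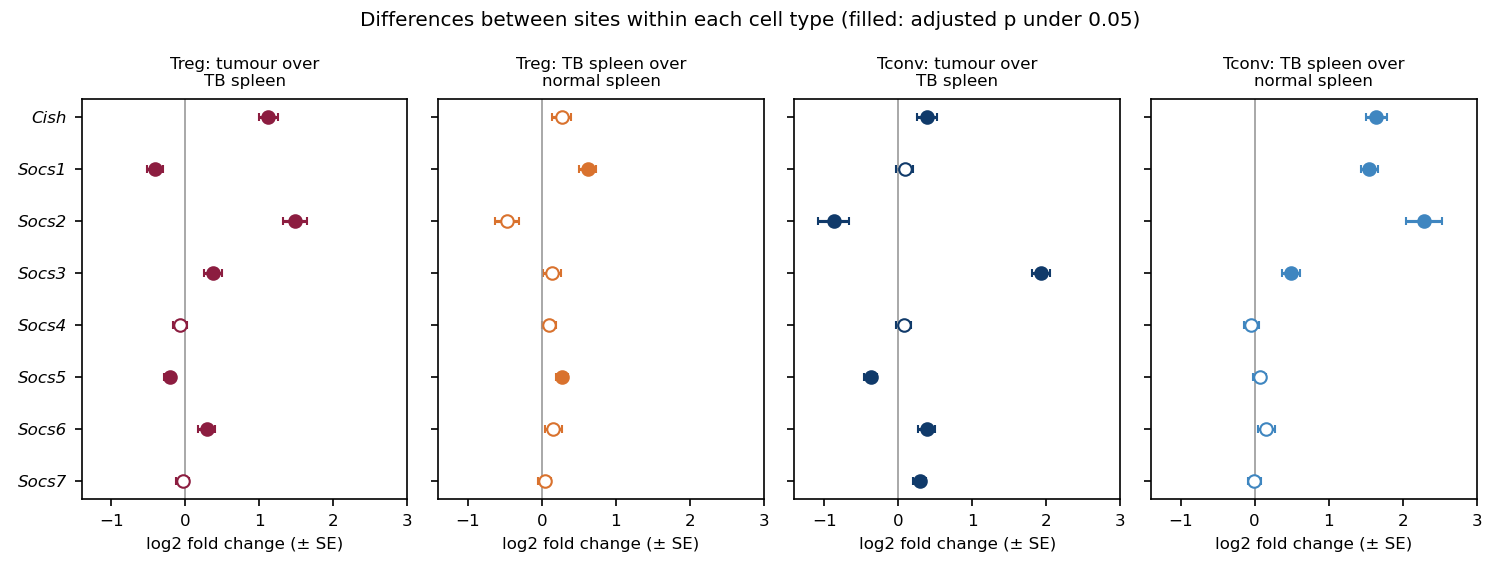
Log2 fold change with its SE (horizontal axes) of the 8 genes between sites within Treg (left pair) and within Tconv (right pair). Filled points have an adjusted p under 0.05: Cish and Socs2 lead in tumour Treg over TB spleen Treg, Socs3 in tumour Tconv over TB spleen Tconv at 1.93, and Cish, Socs1 and Socs2 in TB spleen Tconv over normal spleen Tconv.

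The tumour libraries also held transcripts of other cell types, whose part in the member differences was not tested. The counts of markers below stand against 61.4% of all tested genes called in tumour Treg over TB spleen Treg. In tumour Tconv over TB spleen Tconv the share was 49.1%. All 12 macrophage and monocyte markers were higher in tumour Treg than in TB spleen Treg, with summed levels of 303 and 415 CPM in tumour Treg against 14.1 and 22.1 in TB spleen Treg. In tumour Tconv 11 of the 12 were higher, with 196 and 489 CPM against 9.33 and 7.72 in TB spleen Tconv. All 7 tested of 8 fibroblast markers were higher in both cell types, at 427 and 406 CPM in tumour Treg, while tumour Tconv had 221 and 536, against at most 3.77 in any spleen library, where the collagen-binding gene Lum was at 0 in all 8 libraries. Of the 4 tumour libraries, tumour Tconv library 1 had the lowest macrophage and fibroblast sums. Socs3 had 1007 and 800 CPM in tumour Tconv libraries 1 and 2, and any link to these sums was not tested. Lung and tumour epithelium markers summed to 167 and 115 CPM in tumour Treg, while tumour Tconv had 90.5 and 104, against 2.86 to 28.4 in spleen libraries. Dendritic cell markers summed to at most 39.5 CPM and neutrophil markers to at most 11.8 CPM in any library. Immediate early genes, which cells switch on within minutes of stimulation or handling, were higher in 15 and lower in 2 of 18 in tumour Treg, and higher in 16 and lower in 1 of 18 in tumour Tconv, relative to TB spleen (median 2.16 and 2.70, against 0.02 and 0.00 over all tested genes).

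Between TB and normal mice, the 4 cytokine-induced members were higher in spleen Tconv of TB mice, and 2 members were higher in spleen Treg of TB mice. In TB spleen Tconv, Cish was 3.13-fold higher than in normal spleen Tconv (1.65 ± 0.14, adjusted p = 2.39e-05), Socs1 was 2.93-fold higher (1.55 ± 0.12, adjusted p = 1.12e-05) and Socs2 was 4.87-fold higher (2.28 ± 0.24, adjusted p = 0.000102). All 3 held with any 1 library left out, between 1.60 and 1.69 for Cish, 1.42 and 1.67 for Socs1, and 1.78 and 2.64 for Socs2. Socs3 was higher by 0.49 ± 0.12 (adjusted p = 0.0166), and was not called without TB spleen Tconv library 1 or either normal spleen Tconv library (adjusted p 0.0713 to 0.137). These 4 of 8 members stand against 17.2% of tested genes called, and Socs4 to Socs7 had estimates between -0.05 and 0.16 with adjusted p of 0.39 or more. In TB spleen Treg over normal spleen Treg, where 15.3% of tested genes were called, Socs1 was higher (0.62 ± 0.11, adjusted p = 0.00359) and Socs5 was higher (0.28 ± 0.08, adjusted p = 0.0325). Neither was called without normal spleen Treg library 2 (Socs1 0.54 with adjusted p = 0.0588, Socs5 0.18 with adjusted p = 0.312), which left 0 of the 8 members, and Socs5 was also not called without either TB spleen Treg library or normal spleen Tconv library 1. Socs2 was at -0.47 ± 0.17 in Treg, not called in the fit of all 12 libraries (adjusted p = 0.0764) but called as lower in a fit of only the groups compared (adjusted p = 0.00143), with limma-voom (adjusted p = 0.0371), with low counts unfiltered (adjusted p = 0.0421) and without any one of the tumour Tconv or TB spleen Tconv libraries (adjusted p 0.00406 to 0.048). Cish was at 0.27 ± 0.13 in Treg and was likewise called only when the fit was limited so (adjusted p = 0.00543) or when a tumour Tconv library was left out.

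The same spleen Tconv libraries differed in receptors of IL-2. Il2ra, the high-affinity chain of the IL-2 receptor, had 42.5 and 65.9 CPM in TB spleen Tconv and 16.0 and 15.6 in normal spleen Tconv (1.78 ± 0.16, adjusted p = 3.08e-05). Il2rb, its signalling chain, had 416 and 631 CPM in TB spleen Tconv and 208 and 209 in normal spleen Tconv (1.33 ± 0.16, adjusted p = 0.000259). For Socs2, Il2ra and Il2rb alike, TB spleen Tconv library 2 was the higher of its pair, as it was for the natural killer cell markers below. Cish had 82.3 and 83.8 CPM in TB spleen Tconv libraries 1 and 2. Foxp3 in these libraries, 13.3 and 16.8 CPM in TB spleen Tconv, against 18.1 and 19.6 CPM in normal spleen Tconv, was not higher in either TB library than in either normal one. The 6 Treg markers summed to 292 and 333 CPM in TB spleen Tconv against 148 and 134 in normal spleen Tconv, with 4 of 6 higher, Il2ra among them. Markers of natural killer cells summed to 93.9 and 143 CPM in TB spleen Tconv against 56.8 and 49.7 in normal spleen Tconv, with 2 of the 3 tested of 5 markers higher. Of all tested genes, 17.2% were called in this comparison. The part of either list in the member differences was not tested.

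**Figure D4:**
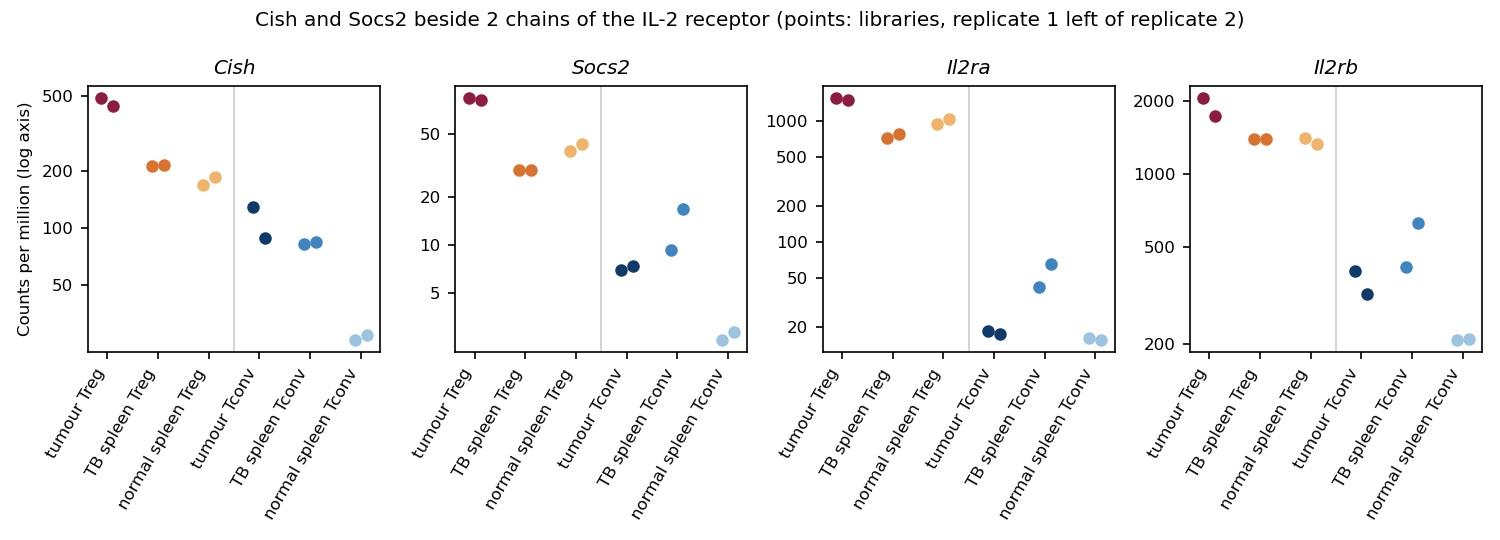
Levels in CPM on log axes of Cish, Socs2 and the IL-2 receptor genes Il2ra and Il2rb in the 12 libraries, with replicate 1 left of replicate 2 in each group. All 4 are higher in every Treg library than in any Tconv library, and within Tconv all 4 are higher in TB spleen than in normal spleen.

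Setting Treg against Tconv at each site gave the cell type difference of each member. Socs2, Cish and Socs5 were higher in Treg at all 3 sites. Socs2 was 11.4-fold higher in tumour Treg than in tumour Tconv (3.51 ± 0.19, adjusted p = 1.63e-08), 2.24-fold higher in TB spleen Treg than in TB spleen Tconv (1.17 ± 0.18, adjusted p = 0.000222) and 15.1-fold higher in normal spleen Treg than in normal spleen Tconv (3.92 ± 0.22, adjusted p = 3.66e-08). Cish was 4.26-fold, 2.57-fold and 6.67-fold higher at the same sites (2.09 ± 0.13, 1.36 ± 0.13 and 2.74 ± 0.14), with adjusted p of 3.95e-06 or less. Socs5 was 2.55-fold, 2.28-fold and 1.98-fold higher (1.35 ± 0.08, 1.19 ± 0.08 and 0.98 ± 0.08), the steadiest difference of the 3, with adjusted p of 1e-06 or less. None of these 9 calls was lost with any library left out. In the tumour 5 of 8 members were called against 53.9% of tested genes, in TB spleen 4 against 40.3% and in normal spleen 4 against 40.6%.

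Socs3 and Socs1 went the other way in the tumour. Socs3 was 3.96-fold lower in tumour Treg than in tumour Tconv (-1.99 ± 0.12, adjusted p = 4.28e-08). It was 1.35-fold lower in TB spleen Treg than in TB spleen Tconv (-0.44 ± 0.12, adjusted p = 0.0112), a call lost without TB spleen Treg library 2 (-0.30, adjusted p = 0.127) and without library 1 of TB spleen Tconv (adjusted p = 0.101). In normal spleen its difference was -0.09 ± 0.12 (adjusted p = 0.618). Socs1 was 1.32-fold lower in tumour Treg than in tumour Tconv (-0.40 ± 0.11, adjusted p = 0.00797), a call lost without tumour Treg library 2 (adjusted p = 0.0711) and in a fit of only the groups compared (adjusted p = 0.0735). In TB spleen the Socs1 difference was 0.10 ± 0.11 (adjusted p = 0.521), and in normal spleen Socs1 was 2.04-fold higher in Treg (1.03 ± 0.12, adjusted p = 1.74e-05). Socs4, Socs6 and Socs7 were not called at any of the 3 sites, with Socs7 nearest at -0.22 ± 0.09 in the tumour (adjusted p = 0.0595). In the tumour each of the 3 was called as lower in Treg when 1 library was left out: Socs4 at -0.33 without tumour Tconv library 1 (adjusted p = 0.0163), Socs6 at -0.32 without tumour Treg library 1 (adjusted p = 0.042) and Socs7 at -0.35 without tumour Tconv library 2 (adjusted p = 0.00527). Socs7 was also called with low counts unfiltered (adjusted p = 0.0402).

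**Figure D5:**
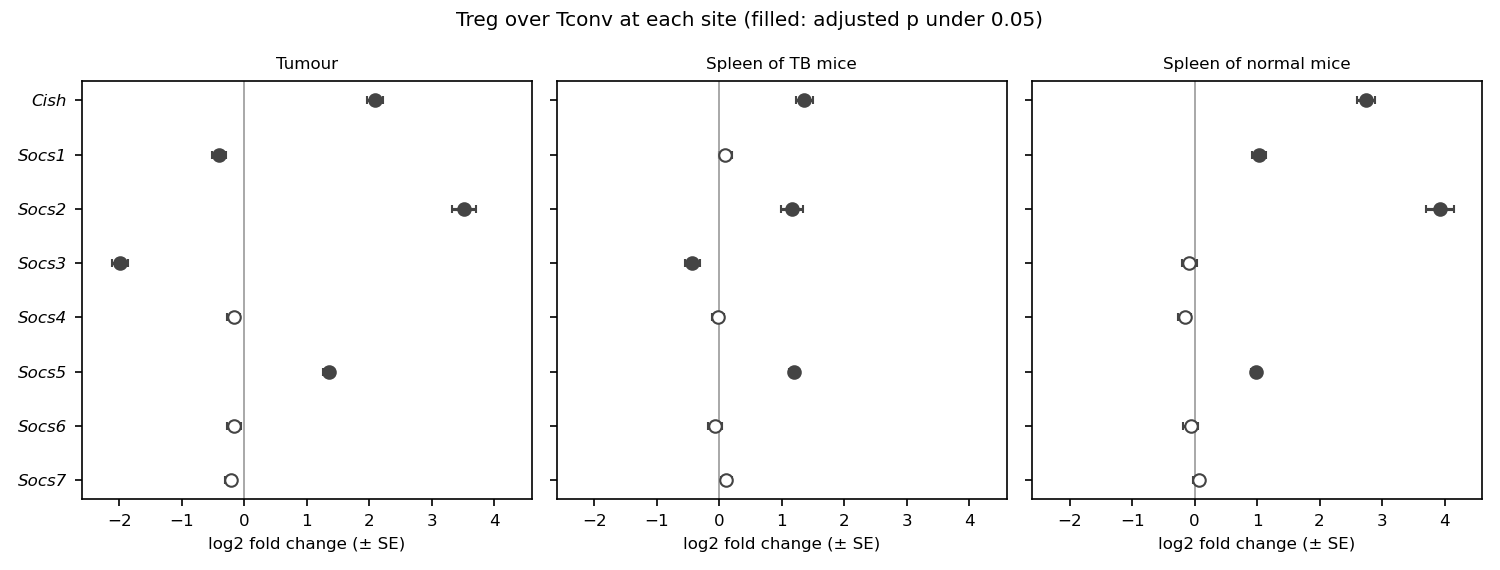
Log2 fold change of Treg over Tconv with its SE (horizontal axes) for the 8 genes in the tumour, TB spleen and normal spleen. Filled points have an adjusted p under 0.05: Cish, Socs2 and Socs5 lie right of 0 at all 3 sites, and Socs3 lies at -1.99 in the tumour.

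Whether the tumour against TB spleen difference itself differed between the cell types was tested as an interaction, the difference in Treg minus that in Tconv. Socs2, higher in tumour Treg and lower in tumour Tconv than in TB spleen, had an interaction of 2.35 ± 0.26 (adjusted p = 8e-05). Socs3, higher in the tumour in both cell types and by more in Tconv, had -1.55 ± 0.17 (adjusted p = 6.95e-05). Cish had 0.73 ± 0.18 (adjusted p = 0.0121) and Socs1 -0.50 ± 0.16 (adjusted p = 0.0342). These 4 of 8 members stand against 24.7% of tested genes. Cish stayed called with any library left out, between 0.47 without tumour Tconv library 2 and 1.00 without tumour Tconv library 1. The Socs1 interaction was not called without tumour Treg library 2, tumour Tconv library 1, either TB spleen Treg library or TB spleen Tconv library 1 (adjusted p 0.0606 to 0.129).

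The interaction of the TB against normal spleen difference was called for only 0.851% of all tested genes, and for 3 of the 8 members. Socs2 had -2.76 ± 0.30 (adjusted p = 0.000473), Cish -1.38 ± 0.19 (adjusted p = 0.00409) and Socs1 -0.93 ± 0.16 (adjusted p = 0.0169), so each difference was larger in Tconv than in Treg. Socs2 and Cish were called with any library left out, at -3.11 to -2.26 and -1.44 to -1.31. Socs1 was not called without any one of 6 libraries, which were both of TB spleen Treg, library 2 of TB spleen Tconv, library 1 of normal spleen Treg and both of normal spleen Tconv (adjusted p 0.0608 to 0.0937). Il2ra (-2.17 ± 0.21, adjusted p = 0.000264), Il2rb (-1.29 ± 0.22, adjusted p = 0.0169) and Bcl2, a survival gene that STAT5 can induce (-1.53 ± 0.09, adjusted p = 3.02e-06), were called in the same direction. They were the only calls from their lists: 2 of 26 tested cytokine receptor genes and 2 of 12 STAT-induced genes, with Il2ra in both. None of 11 JAK and STAT genes and none of 11 tested cytokine genes was called. Both interactions use the TB spleen libraries and all the comparisons above share control libraries with others, so the counts of called members are not independent of each other.

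Of 11 JAK and STAT genes, the transducers that induce the SOCS genes, 6 were higher and 3 lower in tumour Treg than in TB spleen Treg (median log2 fold change 0.28, against 0.02 over all tested genes). In tumour Tconv over TB spleen Tconv, 5 were higher and 0 lower (median 0.19, against 0.00). All tested genes were called at 61.4% and 49.1% in the same 2 comparisons. Stat3, which drives Socs3, was higher in tumour Treg by 0.81 ± 0.07 (adjusted p = 1.08e-06) and in tumour Tconv by 0.55 ± 0.07 (adjusted p = 3.87e-05). Stat5b and Stat5a, which drive Cish and Socs2, were higher in tumour Tconv than in TB spleen Tconv by 0.52 ± 0.06 and 0.46 ± 0.07, where Socs2 was lower and Cish was higher. Stat5b was at -0.09 ± 0.06 in tumour Treg (adjusted p = 0.206).

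Of 28 cytokine receptor genes, 26 were tested. In tumour Treg over TB spleen Treg 17 were higher and 5 lower (median 0.51), with 61.4% of all tested genes called and an overall median of 0.02. In tumour Tconv over TB spleen Tconv 12 were higher and 7 lower (median 0.28), with 49.1% called and an overall median of 0.00. In TB spleen Tconv over normal spleen Tconv 9 were higher and 3 lower (median 0.14), with 17.2% called and an overall median of 0.00. Il2ra had 1546 and 1502 CPM in tumour Treg against 726 and 782 in TB spleen Treg (1.02 ± 0.14, adjusted p = 4.68e-05). It had 18.3 and 17.2 CPM in tumour Tconv against 42.5 and 65.9 in TB spleen Tconv (-1.62 ± 0.16, adjusted p = 6.04e-06). These are the directions of Socs2 but not of Cish, which was higher in tumour Tconv than in TB spleen Tconv (0.39 ± 0.13, adjusted p = 0.0262). That Cish difference ran from 0.11 to 0.63 with 1 library left out. Il6ra, the IL-6 binding chain, was lower in tumour Treg than in TB spleen Treg (-1.26 ± 0.10, adjusted p = 9.5e-07) and had 76.3 ± 14.3 CPM in tumour Treg against 331 ± 8.43 in tumour Tconv, where Socs3 was high. Il6st, which encodes gp130, was lower in tumour Treg (-0.31 ± 0.07, adjusted p = 0.00358) and higher in tumour Tconv (0.35 ± 0.07, adjusted p = 0.0022) relative to TB spleen. Socs3 was higher than in TB spleen in tumour Treg too (0.38 ± 0.12, adjusted p = 0.0164), where Il6ra and Il6st were lower. That Socs3 difference ran from 0.23 to 0.53 with 1 library left out, and was 0.215 and not called under scaling by library size (edgeR adjusted p = 0.115). Ifngr1, a chain of the interferon gamma receptor, was higher in TB spleen than in normal spleen in both Treg (2.03 ± 0.11, adjusted p = 5.06e-07) and Tconv (1.36 ± 0.11, adjusted p = 1.16e-05).

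Among 20 cytokine genes known to induce SOCS members, 11 were tested. Relative to TB spleen, 5 were higher and 2 lower in tumour Treg (median 0.89), and 4 were higher and 2 lower in tumour Tconv (median 0.73). These counts are near the 61.4% and 49.1% of all tested genes called in the 2 comparisons, whose medians were 0.02 and 0.00. Lif, an IL-6 family cytokine, was higher in tumour Tconv than in TB spleen Tconv (2.55 ± 0.22, adjusted p = 2.33e-06), with 14.1 ± 2.55 CPM in tumour Tconv against 2.38 ± 0.0553 in TB spleen Tconv. Il6 had 31 and 48 counts in tumour Treg against 0 and 1 in TB spleen Treg, while tumour Tconv had 15 and 76 counts against 1 and 0 in TB spleen Tconv. Macrophage and monocyte markers summed to 196 and 489 CPM in the same tumour Tconv libraries, and fibroblast markers to 221 and 536. Which cells the Il6 reads came from was not tested. Il10, an anti-inflammatory cytokine that signals through STAT3, was higher in tumour Treg than in TB spleen Treg (3.10 ± 0.24, adjusted p = 4.67e-07). Il2 had 1 count or fewer in every Treg library, and 13 to 20 counts in every Tconv library.

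Of 8 genes of SOCS box ligases (elongins, cullin 5 with its partners, and the related cullin 2 with Rbx1), 5 were higher and 1 lower in tumour Treg than in TB spleen Treg (median 0.28), and 2 were higher and 3 lower in tumour Tconv than in TB spleen Tconv (median -0.08), against 61.4% and 49.1% of all tested genes called. Elongin C (listed as Tceb1) was higher in tumour Treg by 0.61 ± 0.09 (adjusted p = 0.00012) and elongin B (listed as Tceb2) by 0.58 ± 0.10 (adjusted p = 0.000232), while Cul5, the cullin of SOCS ligases, was lower (-0.41 ± 0.08, adjusted p = 0.000705). Of 26 other genes with a SOCS box, 14 were tested; relative to TB spleen, 3 were higher and 4 lower in tumour Treg (median -0.07), and 2 were higher and 6 lower in tumour Tconv (median -0.34). Wsb1, a SOCS box protein with WD repeats, was higher in the tumour in Treg (1.03 ± 0.08, adjusted p = 3.9e-07) and in Tconv (1.37 ± 0.08, adjusted p = 5.39e-08), relative to TB spleen. Spsb1, a SOCS box protein with a SPRY domain, was, like Socs3, highest in tumour Tconv. It had 88.8 and 80.9 CPM in tumour Tconv against 31.3 and 31.3 in TB spleen Tconv (1.44 ± 0.11, adjusted p = 5.74e-07), and its site interaction was -1.54 ± 0.15 (adjusted p = 3.71e-05).

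Of 13 other inhibitors of JAK and STAT signalling, 3 were higher and 5 lower in tumour Treg than in TB spleen Treg (median -0.12), near the 61.4% of all tested genes called there. In tumour Tconv over TB spleen Tconv, 2 were higher and 5 lower (median -0.08), where 49.1% of tested genes were called. Usp18, an inhibitor of the type I interferon receptor, was higher in tumour Treg (1.20 ± 0.11, adjusted p = 1.53e-06). Sh2b3, the adaptor LNK, was lower (-1.51 ± 0.09, adjusted p = 5.85e-08), as was Ptpn6, the phosphatase SHP-1 (-1.10 ± 0.11, adjusted p = 5.29e-06). Of 12 genes known to be induced by STATs in T cells, 5 were higher and 7 lower in tumour Treg than in TB spleen Treg (median -0.36), so all 12 were called against 61.4% of tested genes. In tumour Tconv over TB spleen Tconv 5 were higher and 5 lower (median 0.14), where 49.1% of tested genes were called. In TB spleen Tconv over normal spleen Tconv 6 were higher and 1 lower (median 0.21), where 17.2% of tested genes were called. Pim1, a survival kinase, was higher in the tumour in both Treg (1.57 ± 0.09, adjusted p = 3.65e-08) and Tconv (1.86 ± 0.09, adjusted p = 1.19e-08), whereas Bcl2 was lower in both (-1.86 ± 0.07 and -0.66 ± 0.06, adjusted p = 9.97e-10 and 4.39e-06).

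For each wide member, the 3 genes with the most similar profile over the 12 libraries were taken from 8364 candidates, by the root mean square difference of centred log2 CPM. For Cish they were Tnfrsf18, the costimulatory receptor GITR (0.23), Atp2b4, a calcium pump of the plasma membrane (0.26), and Serpina3g, a serine protease inhibitor (0.32). Tnfrsf18 had mean levels of 855, 497 and 274 CPM in tumour, TB spleen and normal spleen Treg, and of 191, 119 and 49.7 CPM in the same order of sites in Tconv. For Socs2 they were Entpd1, the ectonucleotidase CD39 (0.41), Serpina3g (0.44) and Pdcd1lg2, the PD-1 ligand PD-L2 (0.50). For Socs3 they were Rnf19a, a ubiquitin ligase (0.20), Arid5a, an RNA-binding protein (0.22), and Elmsan1 (0.25). Arid5a had 912 CPM in tumour Tconv against 130.1 to 214 CPM in the other 5 groups' means. For Socs1 they were Mapk8ip3, a kinase scaffold (0.23), Ktn1 (0.26) and Gabbr1 (0.28), and for Socs5 they were Cyp4v3, Pck2 and Rabgap1l (all 0.14). Within the family the most similar pair was Socs4 and Socs7 (0.16). Cish was closest to Socs2 (0.60), and Socs2 and Socs3 were the least similar pair (2.05).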

How the data were processed

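Messenger RNA of sorted CD4+ T cells was sequenced in 12 libraries. Per the submitters' processing notes, the tools were STAR and featureCounts on mm10; versions and the strand setting are not given in the sources used here. The authors deposited raw read counts per gene. Genes passing edgeR's filterByExpr by group (13509) were fitted in edgeR 4.0.16 (R 4.3.3) with TMM scaling, 6 group means, 6 residual degrees of freedom and quasi-likelihood F tests; SE is the size of the log2 fold change divided by the square root of F. P-values were two-sided and Benjamini-Hochberg adjusted over all tested genes; an adjusted p under 0.05 was called. The depth of 18624132 to 24111546 counts gave each member at least 50 counts in every library, and replicate libraries varied 3.56 to 17 times as much as counting alone would give. CPM used library sizes scaled by TMM; profile likeness used log2 CPM with a prior count of 2. Tested on simulated data of 13062 genes for tumour Treg over TB spleen Treg, the fit recovered 98 of 100 changes of 1 log2 unit and 70 of 100 of 0.5, with 7 false among 175 calls; for the site interaction it recovered 91 and 21 of 100, with 7 false among 119.

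The members and the pathway and marker lists were chosen with earlier results of these data known. Of each list the rule named at most 3 called genes with the largest increase and 3 with the largest decrease per comparison, and those printed are the ones beside a member's result. Il6st, Il2ra and Il2rb between some pairs of groups, Stat5b in tumour Treg and Bcl2 in tumour Tconv fall outside that rule and were chosen after their values were seen. Like genes had to be tested, have a mean log2 CPM of at least 3 and not be gene models. Alternatives were DESeq2 1.42.0, limma-voom 3.58.1, DESeq2-type size factors, library size scaling, no filter, a CPM filter, fits limited to the compared groups, blocks by replicate number, a stricter threshold and leaving out each library. Tables and figures used Python 3.11.15, pandas 2.3.3 and matplotlib 3.10.9; promoter windows came from RefSeq on GRCm38.p6.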

Additional observations from a re-analysis of the deposited data

Results flagged for a closer look

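For 4 members the tumour against TB spleen difference was not the same in Treg as in Tconv, by the interaction test in edgeR (Treg minus Tconv, log2). The values were 0.73 for Cish (adjusted p = 0.0121), -0.50 for Socs1 (adjusted p = 0.0342), 2.35 for Socs2 (adjusted p = 8e-05) and -1.55 for Socs3 (adjusted p = 6.95e-05). For 3 members the TB spleen against normal spleen difference was not the same in the 2 cell types. The values were -1.38 for Cish (adjusted p = 0.00409), -0.93 for Socs1 (adjusted p = 0.0169) and -2.76 for Socs2 (adjusted p = 0.000473). The 2 tests share the TB spleen libraries. Both Socs1 interactions lost their call when any of several single libraries was left out.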

How the results depend on the processing

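Over 10 alternatives and 12 left-out libraries, 72 member results gave 1552 values, of which 1423 kept direction and call, 75 lost a call and 19 gained one. The sign changed in 35, none of them in a called result or called under the alternative. Without 1 library, the called members numbered 3 to 6 in tumour Treg over TB spleen Treg, 3 to 6 in tumour Tconv over TB spleen Tconv, 0 to 4 in TB over normal spleen Treg, 3 to 4 in TB over normal spleen Tconv, 4 to 6, 3 to 4 and 4 to 4 in Treg over Tconv of tumour, TB spleen and normal spleen, 3 to 5 in the site interaction and 2 to 3 in the systemic one. At an adjusted p under 0.01 they were 3, 3 and 1 in the first 3 and 2 in the site interaction. That threshold also ended the edgeR calls of Socs3 in TB over normal spleen Tconv (adjusted p = 0.0166) and in TB spleen Treg over Tconv (adjusted p = 0.0112). The Socs1 call in the systemic interaction was lost as well (adjusted p = 0.0169). Library size scaling gave 3 in tumour Tconv, and a fit of only the groups compared gave 4 in TB over normal spleen Treg.

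Scaling by library size put the median over all genes at -0.138 and -0.108 in tumour Treg and Tconv over TB spleen, against 0.0218 and 0.000377. The split of all calls was then 3491 higher and 5267 lower in tumour Treg, against 4427 and 3872, and 3094 and 4361 in tumour Tconv, against 3562 and 3077. In spleen it was 1281 and 645 in Treg, against 918 and 1148, and 1757 and 482 in Tconv, against 1316 and 1012; in the site interaction it was 1277 and 2041, against 1574 and 1763.

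The uncalled estimates that changed sign under an alternative were Socs7 in tumour Treg over TB spleen Treg (0.004 with DESeq2 and its size factors), Socs6 in the systemic interaction (0.014 with DESeq2 and its size factors, 0.022 unfiltered, 0.003 in a fit of only the groups compared) and Socs7 in TB over normal spleen Tconv (0.009 in that fit). Under library size scaling they were Socs1 (-0.024) and Socs4 (-0.032) in tumour Tconv over TB spleen Tconv, Socs4 (0.029) and Socs7 (0.068) in TB over normal spleen Tconv, and Socs4 in TB spleen Treg over Tconv (0.031). Without 1 library, ranges that crossed 0 were -0.091 to 0.023 for Socs7 in tumour Treg over TB spleen Treg, -0.043 to 0.213 for Socs1 and -0.086 to 0.218 for Socs4 in tumour Tconv over TB spleen Tconv, -0.024 to 0.277 for Socs3 and -0.032 to 0.114 for Socs7 in TB over normal spleen Treg, -0.116 to 0.03 for Socs4 and -0.035 to 0.025 for Socs7 in TB over normal spleen Tconv, -0.023 to 0.226 for Socs1 and -0.094 to 0.048 for Socs4 in TB spleen Treg over Tconv, -0.012 to 0.135 for Socs7 in normal spleen Treg over Tconv, -0.252 to 0.048 for Socs6 in the site interaction, and -0.065 to 0.05 for Socs6 and -0.026 to 0.12 for Socs7 in the systemic one. The cause was not tested.

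Deviations of same-numbered libraries correlated at -0.16 to 0.264 over the pairs of groups, highest for TB spleen Treg with TB spleen Tconv. Numbers were those of the titles, which differ from the descriptions for normal mice, and no label says that a number marks a shared mouse. A replicate block over 12 libraries gave 6 called members in tumour Treg over Tconv, against 5, by adding Socs7 (adjusted p = 0.0374). A replicate block over the 8 libraries of TB mice gave 5 in tumour Treg over TB spleen Treg (Socs6 lost, adjusted p = 0.0952), 6 in tumour Treg over Tconv (Socs7 gained, adjusted p = 0.0426) and 3 in the site interaction (Socs1 lost, adjusted p = 0.052); the other counts did not change.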
